A study of Mus musculus with 29 samples.

Results

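Immunoglobulin variable segments, the gene pieces from which the antigen-binding end of an antibody is built, were followed in RNA-seq libraries of sorted mouse blood stem and progenitor cells. Members were chosen by name and by their summed count: the identifier maps to a symbol starting with Ighv, Igkv or Iglv, and the counts over all 29 libraries sum to at least 10. Of the 38924 genes of the table, 158 qualified. They were 80 heavy chain segments in 13 families on chromosome 12, 75 kappa light chain segments in 17 families on chromosome 6 and 3 lambda light chain segments on chromosome 16. Of 348 variable segments in the annotation, 214 had a row in the table, 30 of these had no count and 26 stayed under the minimum with 123 counts together. The other 134 segments, 122 of them pseudogenes, were not analysed here. The members nearest above the minimum were Ighv6-7 with 11 counts and Igkv4-57 and Ighv1-43 with 13 counts each, and the segments nearest below it were Igkv4-92 and Igkv4-54 with 9 counts each and Ighv7-2 with 8.

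The cells were bone marrow populations of C57BL/6 mice that carried a Dnmt3a mutation or were controls. All mice were young animals sampled 6 weeks after pIpC, an analogue of double-stranded RNA commonly used to induce Mx1-Cre, so the controls had the same treatment. The labels name neither the mutant allele nor a Cre line. Libraries of polyA RNA came from long-term stem cells (LT-HSC, 4 control and 3 mutant), short-term stem cells (ST-HSC, 3 control and 4 mutant) and the multipotent progenitors MPP3 (3 control and 4 mutant) and MPP4 (4 control and 4 mutant). The design text counts 3 mutant MPP3 libraries, and the 4 in the sample list were used. No label ties the replicates to separate animals, so the p-values cover only the spread among these libraries, part of which may be technical.

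In developing B cells, recombination joins a variable segment to a joining segment, with a diversity segment between them on the heavy chain, and each B cell thereafter transcribes its own assembled heavy and light chain. Cells of a clone therefore share their V segments, and plasma cells, which secrete antibody, hold very large amounts of this RNA. Before they recombine, the heavy chain segments also give low germline transcripts in early lymphoid progenitors. Some pairs of segments recur across mice, such as Ighv11-2 with Igkv14-126 in B-1a cells that bind phosphatidylcholine.

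The 6 segments with the highest summed counts are shown because they fell into 3 pairs of a heavy and a kappa segment whose counts followed each other over the libraries. Each is the last 285 bases of the spliced coding sequence of the GENCODE M21 transcript on GRCm38, 5′ to 3′, and the capitals run from the codon of the last conserved cysteine to the 3′ end of the segment, where the third complementarity-determining region begins. Ighv7-1 lies at chr12:113896408-113896946 on the minus strand, Ighv11-2 at chr12:114048241-114048812 minus and Ighv5-16 at chr12:113838526-113839010 minus. Igkv15-103 lies at chr6:68437440-68437925 on the plus strand, Igkv14-126 at chr6:67896172-67896642 plus and Igkv1-88 at chr6:68862265-68863031 minus. These coordinates span the intron between leader and V exon.
Ighv7-1: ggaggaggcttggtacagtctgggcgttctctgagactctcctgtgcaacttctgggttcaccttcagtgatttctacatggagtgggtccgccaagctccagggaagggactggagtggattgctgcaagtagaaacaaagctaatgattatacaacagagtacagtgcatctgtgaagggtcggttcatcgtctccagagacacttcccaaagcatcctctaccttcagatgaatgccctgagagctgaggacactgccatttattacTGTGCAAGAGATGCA
Igkv15-103: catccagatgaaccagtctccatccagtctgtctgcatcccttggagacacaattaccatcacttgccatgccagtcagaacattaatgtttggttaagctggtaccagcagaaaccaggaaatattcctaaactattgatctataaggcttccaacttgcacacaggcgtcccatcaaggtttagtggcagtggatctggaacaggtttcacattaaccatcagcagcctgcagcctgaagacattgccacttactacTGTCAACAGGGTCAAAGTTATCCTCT
Ighv11-2: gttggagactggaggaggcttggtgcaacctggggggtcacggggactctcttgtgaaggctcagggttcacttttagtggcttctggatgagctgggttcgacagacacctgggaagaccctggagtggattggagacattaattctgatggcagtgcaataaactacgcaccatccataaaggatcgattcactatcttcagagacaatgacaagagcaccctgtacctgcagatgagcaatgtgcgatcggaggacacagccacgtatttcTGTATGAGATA
Igkv14-126: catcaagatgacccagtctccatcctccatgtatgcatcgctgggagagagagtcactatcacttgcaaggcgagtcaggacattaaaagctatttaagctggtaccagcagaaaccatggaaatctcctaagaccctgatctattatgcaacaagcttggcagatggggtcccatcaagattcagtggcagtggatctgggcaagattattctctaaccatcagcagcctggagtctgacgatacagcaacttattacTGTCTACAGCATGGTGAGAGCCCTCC
Ighv5-16: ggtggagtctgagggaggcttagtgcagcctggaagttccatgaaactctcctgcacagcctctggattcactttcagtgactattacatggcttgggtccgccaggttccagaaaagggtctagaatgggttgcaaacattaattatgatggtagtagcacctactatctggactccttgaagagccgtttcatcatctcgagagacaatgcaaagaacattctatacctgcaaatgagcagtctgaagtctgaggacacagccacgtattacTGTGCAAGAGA
Igkv1-88: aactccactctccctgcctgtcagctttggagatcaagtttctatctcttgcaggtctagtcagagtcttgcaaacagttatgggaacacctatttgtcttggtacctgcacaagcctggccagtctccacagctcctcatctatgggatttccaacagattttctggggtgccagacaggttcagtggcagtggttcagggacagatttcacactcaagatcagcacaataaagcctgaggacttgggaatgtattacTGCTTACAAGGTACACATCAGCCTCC
In the heavy segments the capitals hold 11 to 15 bases, and in the kappa segments 26. Over the last 285 bases, Ighv7-1 was 67.0% identical to Ighv5-16, and Igkv15-103 was 74.7% identical to Igkv14-126. Of other segments with a row, the nearest to Igkv1-88 was 85.3% identical, whereas Ighv11-2 was 98.6% identical to Ighv11-1, which had 15 counts. RSEM, which the submitters' processing notes list, estimates expected counts by dividing reads that match several genes among them. Values are thus uncertain for the 80 members that were at least 95% identical to another V segment with a row.

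Libraries held 6133994 to 10374672 counts, and V segments took 0.000211% to 0.808% of them. Taking 3 counts as the floor, a count of 0 in a library allows up to 0.288 to 0.564 CPM, meaning counts scaled to a common library size with TMM factors. Floors and intervals cover counting error only, since PCR duplicates do not count molecules independently. The summed count of the members was 162897, with 62380 heavy, 94526 kappa and 5991 lambda counts. The median member had 271.5 counts, 36 members had at least 1000, 40 had under 100, and the 10 highest held 57.6% of the total. Slamf1, which encodes the CD150 surface protein of LT-HSC, lay at 14.2 to 54.1 CPM in LT-HSC and at no more than 3.52 CPM elsewhere except 406 CPM in mutant ST-HSC 2, and Flt3, a receptor of MPP4, lay at 379 to 460 CPM in MPP4 against 29.3 to 208 CPM elsewhere. Control LT-HSC 1, 2 and 3 stood apart with 2260, 583 and 349 CPM of the neutrophil gene S100a8 (5.83 to 67.2 CPM in mutant LT-HSC and 3.67 CPM in control LT-HSC 4), and control ST-HSC 1 with 643 CPM summed over 8 plasmacytoid dendritic cell markers against 130 to 289 CPM in all other libraries.

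V segment transcripts were concentrated in MPP3. The 7 MPP3 libraries held 148252 V counts, 91.0% of all, and mutant MPP3 4 alone held 50.2%. Control MPP3 1, 2 and 3 had summed V levels of 3500, 454 and 1440 CPM, and mutant MPP3 1 to 4 had 766, 479, 1700 and 9170 CPM. The genotypes overlapped, with means of 1800 ± 1550 (SD, n = 3) and 3030 ± 4130 CPM (SD, n = 4). In bulk RNA, more cells with V transcripts and more transcripts per cell cannot be told apart. Outside MPP3, 1 library reached the MPP3 range, control ST-HSC 1 at 1140 CPM. The other control ST-HSC libraries had 6.32 and 20.0 CPM, and the mutant ST-HSC libraries had 19.2, 40.8, 75.5 and 4.32 CPM. Control LT-HSC lay at 43.7, 26.3, 117 and 4.51 CPM and mutant LT-HSC at 35.7, 1.96 and 77.9 CPM, so their ranges overlapped too. MPP4 was low throughout, at 7.51, 7.48, 14 and 5.76 CPM in control and 5.44, 10.3, 2.54 and 8.47 CPM in mutant libraries. Summed V levels are descriptions without a test here. The column headers start with 1 of 2 prefixes, which the labels do not explain. Under the first, the control MPP3 library had 3500 and the mutant libraries 1700 and 9170 CPM, and under the second the control libraries had 454 and 1440 and the mutant libraries 479 and 766 CPM. In LT-HSC the means under the first and second prefix were 35.0 (n = 2) and 60.8 (n = 2) CPM in control and 77.9 (n = 1) and 18.8 (n = 2) CPM in mutant libraries. In ST-HSC they were 573 (n = 2) and 20.0 (n = 1) against 30.0 (n = 2) and 39.9 (n = 2) CPM, and in MPP4, with n = 2 throughout, 7.5 and 9.88 against 7.87 and 5.51 CPM.

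**Figure D1:**
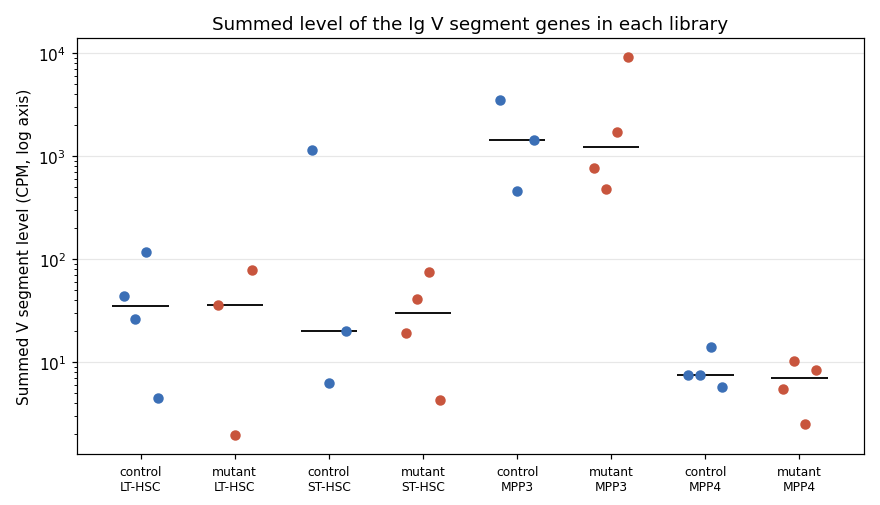
Summed V segment level of each of the 29 libraries in CPM on a log axis, by population, with control in blue, mutant in red and a line at each group's median. The 7 MPP3 libraries sit between 454 and 9170 CPM, and outside MPP3 control ST-HSC 1, at 1140 CPM, is the only library in that range.

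Segment usage differed from library to library. Of the 158 members, 104 had more than 50% of their summed count in a single library and 26 had more than 90%. In MPP3, 8 members had a count in all 7 libraries and 2 had none, and 129 members had most of their counts there. Among the 17 libraries with at least 100 V counts there were 13 different leading segments. The leader by count was also the leader per kilobase of transcript in 29 of 29 libraries, with member transcripts of 302 to 501 bases. As a like class of another lineage, 8 of 131 T cell receptor V segments reached the same minimum, and their summed level was 0 to 11.5 CPM.

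**Figure D2:**
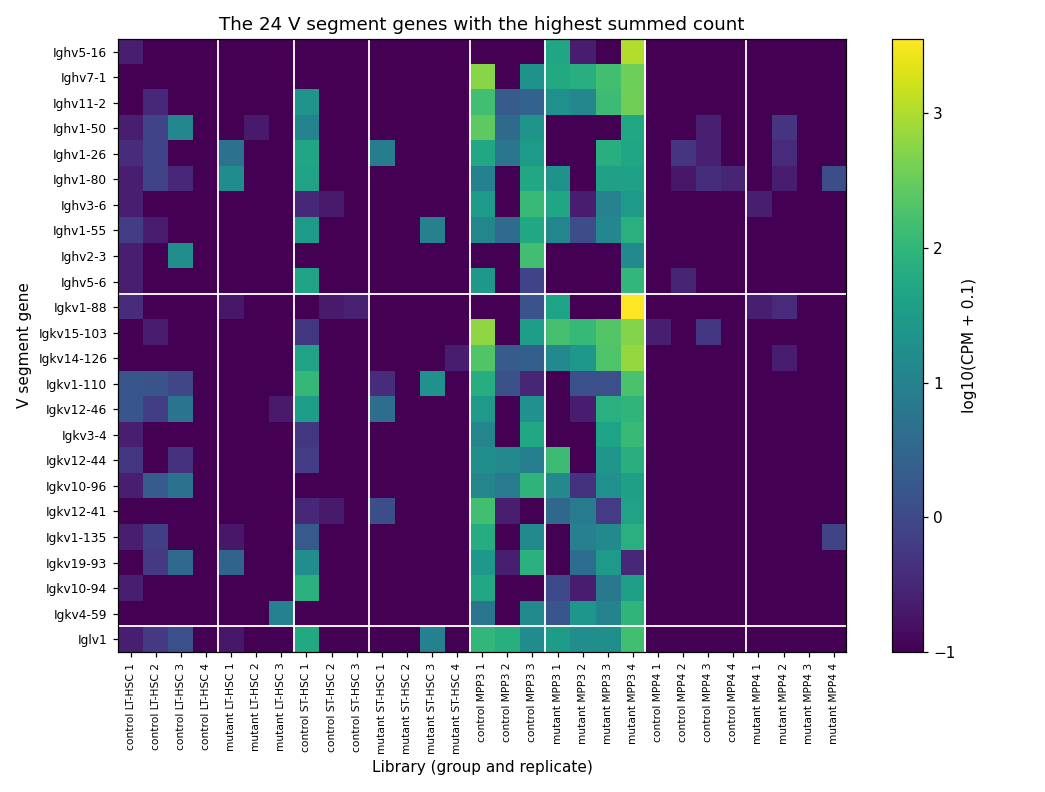
Level of the 24 members with the highest summed counts (vertical) in each of the 29 libraries (horizontal), coloured by log10 of CPM plus 0.1. Many cells of the MPP3 columns are filled, with Igkv1-88 and Ighv5-16 brightest in mutant MPP3 4. Others there are at 0, such as Igkv15-103 and Ighv7-1 in control MPP3 2 and Igkv1-110 in mutant MPP3 1. Most cells of the LT-HSC, ST-HSC and MPP4 columns other than control ST-HSC 1 are at or near 0.

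Among heavy chain segments, Ighv7-1, of the small Ighv7 family, had 4037, 0 and 202 counts in control MPP3 1, 2 and 3, and 312, 618, 1402 and 3149 in mutant MPP3 1 to 4. It was absent from control MPP3 2 and present in the other 6 MPP3 libraries, and it had 0 counts in all 22 libraries outside MPP3. Igkv15-103 had 4587, 0 and 334 counts in control and 863, 922, 2017 and 4621 in mutant MPP3, and at most 4 in any other library. The libraries ranked as for Ighv7-1, except that control MPP3 1 and mutant MPP3 4 changed places at the top. The heavy to kappa ratio of these segments was 0.880 and 0.605 in control MPP3 1 and 3 and 0.362, 0.670, 0.695 and 0.681 in mutant MPP3 1 to 4. Over the 29 libraries, Pearson's r between their values of log2(CPM + 1) was 0.997, and over the 7 MPP3 libraries it was 0.99. The points share libraries and depth, and most of the 29 are at 0.

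Ighv11-2 had 1096, 14 and 25 counts in control MPP3 1, 2 and 3 and 104, 106, 1230 and 3326 in mutant MPP3. Igkv14-126 had 1557, 14 and 22 counts in control MPP3 and 74, 220, 1865 and 6088 in mutant MPP3. This pair, unlike the former, was present in every MPP3 library and also in control ST-HSC 1, with 210 and 387 counts. Their ratios ran from 0.482 in mutant MPP3 2 to 1.41 in mutant MPP3 1, and r was 0.996 over 29 libraries and 0.989 over the 7 of MPP3. Ighv5-16 and Igkv1-88 formed the third pair, which was present in fewer libraries: 259 and 236 counts in mutant MPP3 1, and 9582 and 31914 in mutant MPP3 4. Elsewhere Ighv5-16 had at most 1 count, and Igkv1-88 had 13 in control MPP3 3 and at most 2 in any other library. With a ratio of 1.10 in the former and 0.300 in the latter, the kappa segment was ahead of its partner in mutant MPP3 4. Their r was 0.992, over points of which all but a few are near 0.

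**Figure D3:**
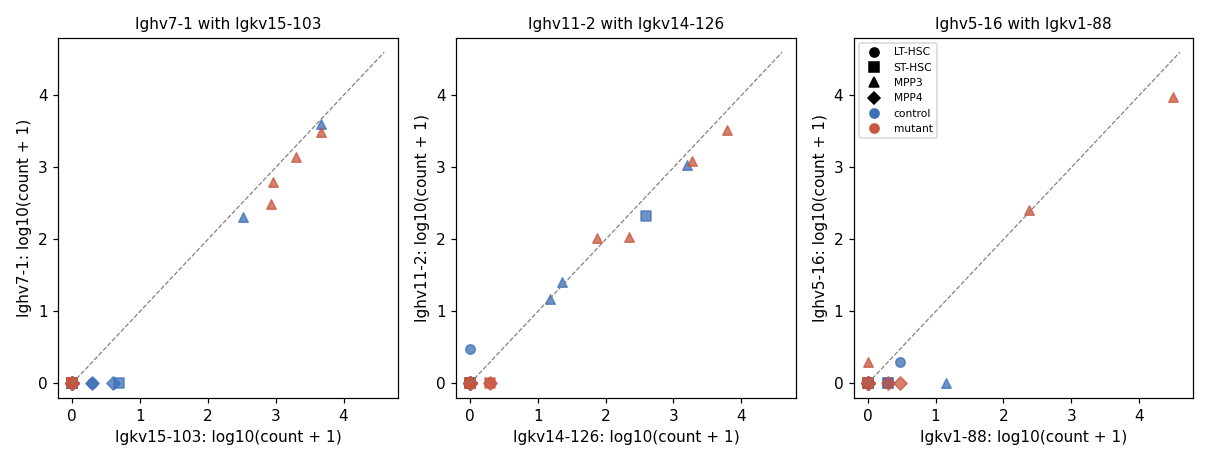
Counts of the heavy segment against the kappa segment for the 3 pairs, as log10(count + 1), 1 point a library, with a dashed line of equal counts. For Ighv7-1 with Igkv15-103 and Ighv11-2 with Igkv14-126 the MPP3 points run along the line, on its kappa side for all 6 of the first pair with counts, and for Ighv5-16 with Igkv1-88 mutant MPP3 4 lies on the kappa side (9582 against 31914 counts).

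For these 6 segments the best correlate on the other chain was the listed partner in both directions. The other members of the 10 with the highest summed counts had best partners with an r of 0.841 to 0.911. Iglv1 was nearest to Ighv1-55 (0.899), Igkv1-110 to Ighv5-6 (0.904), Ighv1-50 to Igkv4-68 (0.841) and Igkv12-46 to Ighv1-64 (0.911). For Iglv1 the value over the 7 MPP3 libraries was 0.279. The pairs were chosen after their values were seen.

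Which segment led differed among the MPP3 libraries. Igkv15-103 led in control MPP3 1 with 17.8% of V counts (95% Wilson interval 17.4% to 18.3%) and in mutant MPP3 1, 2 and 3 with 20.9% (19.7% to 22.2%), 23.3% (22.0% to 24.7%) and 12.8% (12.3% to 13.3%). Ighv8-12 led in control MPP3 2 with 17.1% (15.9% to 18.5%), and Ighv2-3 led in control MPP3 3 with 10.5% (10% to 11%). Igkv1-88 led in mutant MPP3 4 with 39.0% (38.7% to 39.4%). There it held 57.7% of the kappa counts, and Ighv5-16 held 38.6% of the heavy counts. The effective number of segments (the inverse Simpson index, which equals the number of segments if all were used alike) was 13.4, 11.9 and 26.4 in control and 10.1, 9.44, 18 and 5.54 in mutant MPP3. The lowest value was that of the library with the highest V level, mutant MPP3 4, although it had counts for 106 members.

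Population differences were tested gene by gene in the control libraries first, with edgeR's quasi-likelihood test over the whole table. Of the 158 members, 38 passed the filter on low counts, and 5 would have passed it without MPP3. Most tested members therefore passed through the population in which they are high and had to differ, so the counts here describe the tested members and support nothing about the members as a class. Among the 4 control populations 6 of 38 tested members differed at an adjusted p under 0.05 (29 at an unadjusted p under 0.05), against 5.72% of all genes tested. They were Ighv6-3, Ighv9-3, Igkv12-44, Ighv1-61, Iglv3 and Ighv8-13. MPP3 was higher for 3 of 38 against LT-HSC, against ST-HSC and against MPP4, with none lower, where 0.569%, 1.1% and 0.736% of all genes were higher. The median log2 difference of the 38 was 6.04 against LT-HSC, 2.08 against ST-HSC and 9.1 against MPP4, and that of all genes tested was -0.02, -0.04 and 0.0. These counts depended on single libraries. Without control ST-HSC 1 the calls were 37 among the populations and 14, 8 and 18 for MPP3 against LT-HSC, ST-HSC and MPP4, and without control MPP3 2 they were 22, 11, 11 and 18. Without control ST-HSC 2 or 3 they were 24 or 23 among the populations, 8 or 6 against LT-HSC and 9 or 7 against MPP4, and against MPP4 they were 5 without control LT-HSC 4 and 9 without control MPP3 3. Leaving a library out of a group of 3 lowers the group size that the filter asks for, so that more members are tested.

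The heavy segment Ighv6-3 had 201, 182 and 157 counts in control MPP3, or 23.0 ± 5.64 CPM (SD, n = 3). It had 2, 5, 15 and 14 counts in control LT-HSC, 16, 3 and 4 in control ST-HSC and 1, 8, 2 and 7 in control MPP4. The MPP3 libraries lay above all others. The means were 19.9-fold higher than in LT-HSC (1.15 ± 0.838 CPM, n = 4, edgeR adjusted p = 0.00273), 25.3-fold higher than in ST-HSC (0.907 ± 0.742 CPM, n = 3, edgeR adjusted p = 0.00665) and 48.4-fold higher than in MPP4 (0.475 ± 0.305 CPM, n = 4, edgeR adjusted p = 0.000772). These 3 calls were kept in each of 14 fits that left out 1 library.

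Ighv9-3 had 46, 86 and 410 counts in control MPP3 (20.5 ± 20.0 CPM, n = 3), against 3 counts in all of LT-HSC, 3 in all of ST-HSC and 0 in MPP4. MPP3 was at least 56.7-fold higher than MPP4, taking the floor of 3 counts per library (edgeR adjusted p = 0.00134), and the adjusted p was 0.00273 against LT-HSC and 0.0109 against ST-HSC. Without control MPP3 3 the adjusted p was 0.141 against ST-HSC and 0.0964 against LT-HSC. The kappa segment Igkv12-44 had 133, 99 and 85 counts in control MPP3, or 13.6 ± 4.55 CPM (SD, n = 3). It had 6 counts in LT-HSC (edgeR adjusted p = 0.0134), 5 in ST-HSC (edgeR adjusted p = 0.0247) and 0 in MPP4 (at least 37.5-fold higher, edgeR adjusted p = 0.00275). The LT-HSC and ST-HSC counts are near the floor, so no fold is given for them. The call against LT-HSC was lost without control MPP3 1 (0.0677) or control MPP3 2 (0.0566), and that against ST-HSC without control MPP3 1 (0.0901), 2 (0.081) or 3 (0.0779) or control ST-HSC 2 (0.0777) or 3 (0.0827).

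In the mutant libraries 26 members were tested, none of which would have passed the filter without MPP3, so the same limit holds. Of these, 12 differed among the 4 mutant populations (24 at an unadjusted p under 0.05), against 6.28% of all genes tested. MPP3 was higher for 9 of 26 against LT-HSC, 10 against ST-HSC and 10 against MPP4, with none lower, where 1.78%, 2.87% and 1.07% of all genes were higher. The median log2 difference was 9.68, 9.93 and 9.72 for the members and 0.0, -0.05 and -0.02 for all genes tested. Without mutant MPP3 3 the calls were 6 among the populations and 5 for MPP3 against each of LT-HSC, ST-HSC and MPP4. Without mutant MPP3 4 they were 5 against ST-HSC and 6 against MPP4, without mutant MPP3 1 they were 6 against ST-HSC, and without mutant MPP4 1, 2, 3 or 4 they were 5, 5, 6 or 5 against MPP4. Without mutant LT-HSC 1, 2 or 3, where 58 to 59 members were tested, they were 25, 23 or 21 among the populations, 4 each against LT-HSC and 19, 17 or 19 against ST-HSC.

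Igkv15-103 reached 252 ± 183 CPM (SD, n = 4) in mutant MPP3 and had no count in any mutant LT-HSC, ST-HSC or MPP4 library. It was at least 764-fold higher than in LT-HSC, 556-fold than in ST-HSC and 674-fold than in MPP4 (edgeR adjusted p = 0.000178, 0.000116 and 0.00016). Ighv7-1, its partner, reached 159 ± 135 CPM (SD, n = 4) against no count elsewhere, at least 483-, 351- and 426-fold higher (edgeR adjusted p = 0.000809, 0.000453 and 0.000633). Both segments kept their calls in each of 15 fits that left out 1 library. In control libraries neither was tested, because control MPP3 2 had a count for neither and fewer than 3 control libraries reached the filter.

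Igkv14-126 reached 231 ± 313 CPM (SD, n = 4) in mutant MPP3, against 0 counts in mutant LT-HSC (at least 700-fold higher, edgeR adjusted p = 0.0104) and 1 count in each of ST-HSC (adjusted p = 0.00564) and MPP4 (0.00914). The call against LT-HSC was lost without mutant LT-HSC 3 (0.0509), ST-HSC 4 (0.058) or MPP4 2 (0.059), that against ST-HSC without ST-HSC 4 (0.06), and that against MPP4 without ST-HSC 4 (0.0672) or MPP4 2 (0.122). Its partner Ighv11-2, at 134 ± 168 CPM (SD, n = 4) against 0 elsewhere in the mutant libraries, was not called (edgeR adjusted p = 0.203, 0.13 and 0.23). Ighv3-6 had 268, 1, 98 and 270 counts in mutant MPP3 (22.7 ± 21.9 CPM), with mutant MPP3 2 far below the others. It was at least 68.7-fold higher than in LT-HSC and 50-fold than in ST-HSC, both without a count (edgeR adjusted p = 0.0086 and 0.00381), and the call against MPP4, with 1 count there (0.00844), was lost without mutant MPP4 1 (0.0752). Igkv10-96 (18 ± 15.8 CPM) was at least 39.8-fold higher than in ST-HSC and 48.2-fold than in MPP4 (edgeR adjusted p = 0.00678 and 0.0107). Ighv6-6, at 13.1 ± 19.2 CPM in mutant MPP3 and 1 count in LT-HSC, had an edgeR adjusted p of 0.00942 for that comparison, which was lost without mutant LT-HSC 1 (0.0687) or 2 (0.0641).

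No member passed the test between mutant and control. In LT-HSC, ST-HSC and MPP4 no member passed the filter on low counts in edgeR's quasi-likelihood test, where 0% of all genes were called. DESeq2, with 95, 63 and 48 members tested, called 0 as well (8, 2 and 0 at an unadjusted p under 0.05). In MPP3, edgeR tested 68 members and called 0, with 5 at an unadjusted p under 0.05, against 0.00737% of all genes, and DESeq2 called 0 of 104 (13 at an unadjusted p under 0.05). Of the 68, 31 were higher in mutant MPP3, with a median log2 difference of -0.16 against 0.01 for all genes. The spread between libraries of 1 group was large: Igkv1-88 stood at 906 ± 1780 CPM (SD, n = 4) in mutant and 0.459 ± 0.794 CPM (SD, n = 3) in control MPP3, and its edgeR adjusted p was 1. Igkv15-103 stood at 252 ± 183 against 220 ± 350 CPM (edgeR adjusted p = 1).

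The member with the smallest p was Ighv6-3. Its 201, 182 and 157 counts in control MPP3 stood against 0, 9, 0 and 0 in mutant MPP3 1 to 4. The levels were 23.0 ± 5.64 (SD, n = 3) and 0.273 ± 0.546 CPM (SD, n = 4), a log2 difference of -6.28 (SE 1.06, edgeR adjusted p = 0.497). Without mutant MPP3 2, the only mutant MPP3 library with a count, the difference was -10.52 and the edgeR adjusted p 0.0389. Leaving out that library left the mutant group without a count, so the difference had to widen. With any other library left out, the difference lay between -6.47 and -5.84, and the lowest edgeR adjusted p was 0.151. Ighv6-6, of the same family, had 27, 36 and 0 counts in control and 2, 53, 37 and 372 in mutant MPP3, so its groups overlapped. How reads were divided among the Ighv6 segments was not tested. Igkv5-45 followed, with 43, 21 and 57 counts in control and 4, 0, 0 and 0 in mutant MPP3 (4.92 ± 1.76 against 0.185 ± 0.371 CPM, log2 difference -4.89, SE 1.36, edgeR adjusted p = 1). It is named after its values were seen.

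In several stem cell libraries a few segments held most V counts. Mutant LT-HSC 3 had 681 V counts, of which Igkv17-121 held 278 (40.8%, interval 37.2% to 44.6%), Ighv7-4 159 and Igkv4-63 94, and Ighv7-4 had a count in no other library. Mutant LT-HSC 1 had 356, of which Ighv1-80 held 163 (45.8%, 40.7% to 51.0%), Igkv4-91 99 and Ighv1-26 51. Mutant LT-HSC 2 had 17 in all, 9 of them Ighv10-1, and control LT-HSC 4 had 32, 14 of them Ighv6-3. Control LT-HSC spread theirs more widely: the 996 V counts of control LT-HSC 3 were led by Ighv2-3 with 148 (14.9%, 12.8% to 17.2%), the 306 of control LT-HSC 1 by Ighv4-1 with 46, and the 221 of control LT-HSC 2 by Igkv10-96 and Igkv17-121 with 16 each. The effective number was 15, 33.2, 12.2 and 3.63 in control LT-HSC and 3.18, 2.60 and 3.85 in mutant LT-HSC, where the 3.63 came from 32 counts. The ranges overlapped. Markers of other cells differed among these libraries too, not always in the order of their V counts. Jchain, a marker of antibody-secreting cells, had 49, 0, 158 and 1 counts in control LT-HSC 1 to 4 and 44, 0 and 84 in mutant LT-HSC 1 to 3. The 12 markers of antibody-secreting cells summed to 118 to 185 CPM in control and 113 to 133 CPM in mutant LT-HSC, where Mzb1 and Tnfrsf17 were at 0. The mature B cell marker Cd79a stood at 79.2, 22.0, 16.4 and 1.97 CPM in control LT-HSC 1 to 4 and at 3.11, 1.73 and 1.14 CPM in mutant LT-HSC. The summed level of 12 mature B cell markers was 73.8 to 795 CPM in control and 60.4 to 150 CPM in mutant LT-HSC, with none of the 12 at 0 in either group. Between mutant and control LT-HSC their median log2 difference was -2.34 against 0.0 for all genes, with 0 of 11 called by edgeR (7 at an unadjusted p under 0.05) and 4 of 12 by DESeq2. The 8 markers of B cell precursors summed to 0.423 to 70.6 CPM in control and 0.229 to 0.401 CPM in mutant LT-HSC, where Vpreb1, Vpreb2, Dntt and Il7r were at 0, and Vpreb2 was at 0 in control LT-HSC too. Their median log2 difference was -5.63, with 0 of 3 called by edgeR (3 at an unadjusted p under 0.05) and 2 of 7 by DESeq2. The 6 neutrophil markers summed to 44 to 10700 CPM in control and 54.8 to 379 CPM in mutant LT-HSC, with none at 0. The part of these cells in the usage of segments was not tested.

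In ST-HSC the leader took up to 82.5% of the V counts. Control ST-HSC 3 had 126, of which Igkv6-25 held 104 (82.5%, 75% to 88.2%) and the heavy segment Ighv1-64 13. Mutant ST-HSC 2 had 217, of which Ighv9-2 held 164 (75.6%, 69.4% to 80.8%) and Igkv4-72 41, and mutant ST-HSC 3 had 486, shared by Ighv7-3 with 136, Igkv1-110 with 131 and Iglv1 with 63. Mutant ST-HSC 1 had 136, led by Ighv1-26 with 59 and Igkv12-46 with 30. Of the libraries with fewer, control ST-HSC 2 had 56, of which Ighv10-1 held 34, and mutant ST-HSC 4 had 36, of which Igkv6-17 held 11. Control ST-HSC 1 stood apart, with 10476 V counts over 88 members, led by Igkv1-110 with 977 (9.33%, 8.78% to 9.9%), Igkv1-117 with 856 and Igkv10-94 with 697. Igkv1-110 and Igkv1-117 were 96.8% identical, so their shares are uncertain. The effective number was 23.8, 2.50 and 1.44 in control and 3.94, 1.65, 5.17 and 5.84 in mutant ST-HSC.

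**Figure D4:**
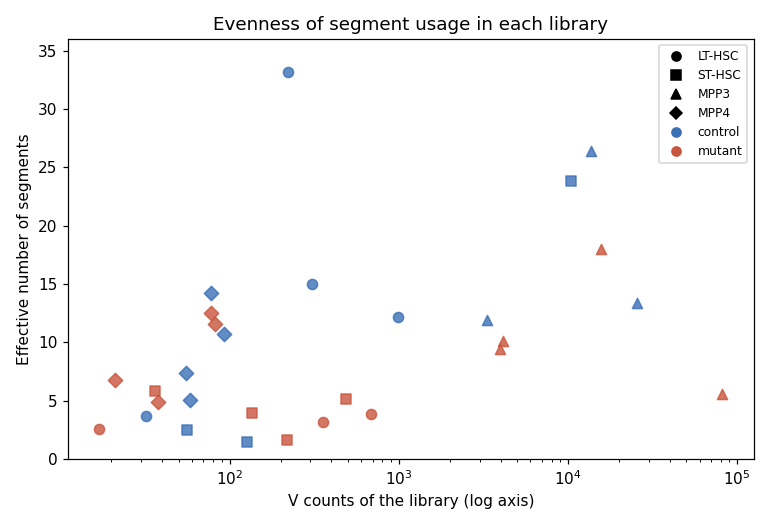
Effective number of segments (vertical) against V counts (horizontal, log axis) in each library, with control in blue, mutant in red and a marker shape for each population. At 100 to 1000 V counts the effective number ran from 1.44 to 33.2, and mutant MPP3 4, with 81735 V counts, had 5.54.

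MPP4 libraries had few V transcripts, and these were mostly heavy. Their 21 to 93 V counts were 71.8% to 100% heavy, with 433 heavy, 56 kappa and 14 lambda counts in all over the 8 libraries. In MPP3 the heavy share was 30.4% to 55.9%, so these populations did not overlap, and in LT-HSC and ST-HSC it ran from 16.7% to 91.1%, across both. In control MPP4 4 all 58 V counts were heavy (interval 93.8% to 100%), and in mutant MPP4 4 the share was 71.8% (61.0% to 80.6%). The large Ighv1 family, which makes up 50% of the heavy members, held 51.4% to 93.6% of heavy counts in MPP4 and 21.3% to 51.3% in MPP3. Of its 40 members 24 lie among the 27 heavy members farthest from the diversity and joining segments, and these 27 held 40.5% to 84.5% of heavy counts in MPP4 and 15% to 52.6% in MPP3. LT-HSC and ST-HSC spanned both populations, with 0% to 96.4% for the Ighv1 family and 0% to 73.7% for these 27. The MPP4 leaders were Ighv10-1, Igkv3-2, Ighv1-85 and Ighv1-75 in control 1 to 4 and Ighv6-3, Ighv1-77, Ighv1-58 and Ighv1-80 in mutant 1 to 4, none with more than 20 counts.

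**Figure D5:**
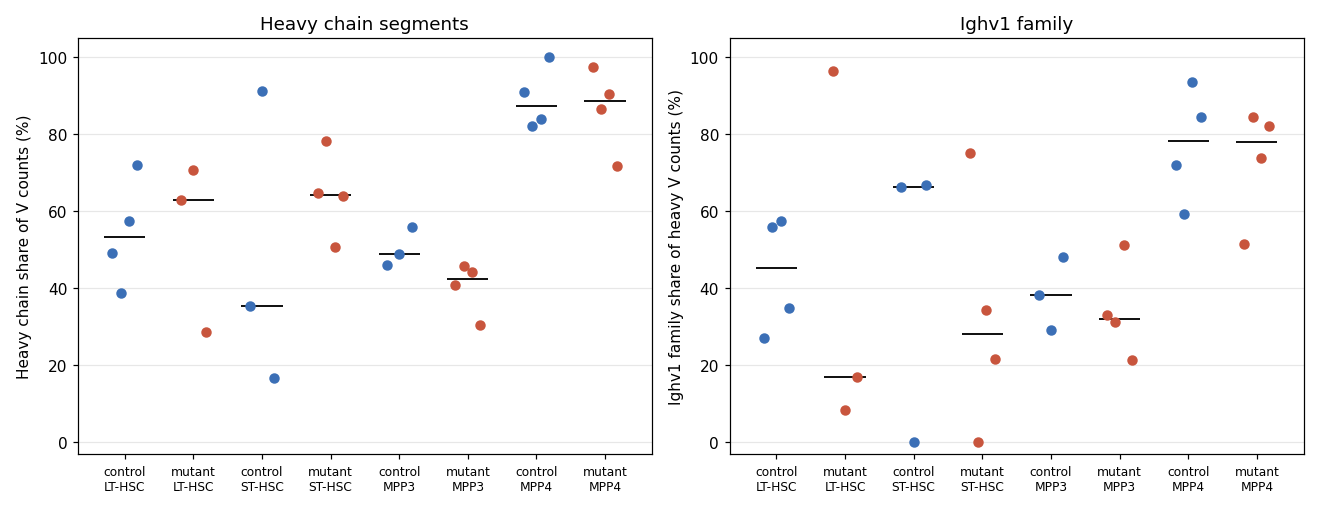
Heavy share of V counts (left) and share of the heavy counts that fell in the Ighv1 family (right), in percent, 1 point a library by population, control in blue and mutant in red. MPP4 lies at 71.8% to 100% on the left, above MPP3 at 30.4% to 55.9%.

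Ighv6-3 was the most widespread member, with a count in 24 of 29 libraries: 6 of 7 LT-HSC, 6 of 7 ST-HSC, 4 of 7 MPP3 and 8 of 8 MPP4. Outside MPP3 it had a count in 20 of 22 libraries and never more than 16. Ighv6-6 followed with 20 libraries, Ighv6-4 with 19, and Ighv1-74 and Ighv1-80 with 15 each, whereas the median member had a count in 6 libraries. In mutant MPP4 1 Ighv6-3 was the leader with 13 of 38 counts (34.2%, 21.2% to 50.1%). The Ighv6 family of 5 members made up 11.3% of V counts in control MPP4 and 23.1% in mutant MPP4 as means over libraries, against 2.95% and 0.618% in control and mutant MPP3. It made up 13.3% and 4.25% in control and mutant LT-HSC and 9.72% and 15.8% in control and mutant ST-HSC.

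The 3 lambda segments had 3883 (Iglv1), 1322 (Iglv2) and 786 (Iglv3) counts. Lambda made up 29.7% of V counts in control MPP3 2, with 550 of Iglv1, 311 of Iglv2 and 121 of Iglv3, and 1.94% to 4.36% in the other 6 MPP3 libraries. Mutant MPP3 4 had the highest counts of Iglv1, at 1308. Outside MPP3 lambda was highest in share in mutant ST-HSC 3 (13.0%, all 63 counts from Iglv1) and control LT-HSC 3 (12.6%, with 113 of its counts from Iglv2). Iglv1 and Iglv2 were 97.5% identical, so the division between them is uncertain. Among the control populations Iglv3 differed in the test given for all 4, with 80, 121 and 0 counts in control MPP3.

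The other parts of the antibody genes were read from a list of constant genes, of which 9 of 12 had a row and the others were not analysed here. Ighm, the constant region of IgM, had 19125 to 210676 counts in the MPP3 libraries and held 77.0% to 98.1% of their heavy constant counts, and Igkc, the kappa constant region, had 5485 to 124266. In MPP4, Ighm had 1407 to 3566 counts whereas Igkc had 1 to 32. Heavy constant counts per heavy V count were 42.0 in MPP4 as a sum over libraries, against 12.2 in MPP3, 13.3 in LT-HSC and 7.67 in ST-HSC. Without control ST-HSC 1, which held most of the ST-HSC counts, the ST-HSC value was 12.3. Jchain, the chain that joins antibody multimers, lay at 138 to 509 CPM in control and 58.2 to 557 CPM in mutant MPP3 and at no more than 0.286 CPM in MPP4. The 9 joining and 20 diversity genes of the table had 0 counts in every library.

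The isotype makeup of these stem cell libraries differed as well. In mutant LT-HSC 3 the IgG constant gene Ighg2c had 996 counts (73.3% of heavy constant counts) and the IgA gene Igha 327 (24.1%). In control ST-HSC 3, led by Igkv6-25, Igha held 457 counts (98.3%), beside 392 of Igkc. Mutant ST-HSC 2, led by Ighv9-2, had Ighm alone, with 1953 counts, and mutant ST-HSC 3 had 88.5% Ighm and 463 counts (11.5%) of Ighg3. Control ST-HSC 1, with many segments, was 50.1% Ighm and 31.1% Igha.

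Between mutant populations, 2 of 7 tested constant genes were higher in MPP3 in each comparison, Iglc2 in all of them, with Ighm against LT-HSC and Igkc against ST-HSC and MPP4 (log2 differences of Igkc 6.61 and 12.65, edgeR adjusted p = 0.0227 and 0.0059). The median log2 difference of the 7 was 6.44, 6.61 and 12.4. Between control populations edgeR called 0 of 8 (7, 0 and 7 at an unadjusted p under 0.05 against LT-HSC, ST-HSC and MPP4), and between mutant and control MPP3 0 of 8 (1 at an unadjusted p under 0.05). DESeq2 called 4, 0 and 6 of 9 in the control comparisons and 0 of 9 between mutant and control MPP3 (2 at an unadjusted p under 0.05). Of 11 tested markers of antibody-secreting cells, 3, 3 and 4 were higher in mutant MPP3 against LT-HSC, ST-HSC and MPP4 (1.78%, 2.87% and 1.07% of all genes), and DESeq2 called 6, 5 and 6 of 12. Among those edgeR called were Irf4, a factor plasma cells need, and Mzb1, a chaperone of antibody assembly (log2 difference of Mzb1 9.49 against LT-HSC, edgeR adjusted p = 0.00498). Mzb1 had 90, 16, 68 and 175 counts in mutant MPP3 and at most 3 in any other mutant library. It thus passed the filter through MPP3 and had to differ, and the limit given for the V members holds for such genes of the lists too. In control MPP3 edgeR called 1, 1 and 2 of 11 (0.569%, 1.1% and 0.736% of all genes), with Xbp1, the driver of secretory capacity, in each, and DESeq2 called 3, 1 and 5 of 11. The median log2 difference of the 11 was 1.98, 1.95 and 2.22 in the mutant and 1.53, 1.74 and 2.2 in the control comparisons, where that of all genes lay between -0.05 and 0.0. The summed level of the 12 markers ran from 361 to 1010 CPM in control and 309 to 1190 CPM in mutant MPP3, and from 103 to 196 CPM elsewhere except 428 CPM in control ST-HSC 1, the library outside MPP3 with the highest V level. Their part in the V segment levels was not tested. Tnfrsf17, the plasma cell receptor BCMA, had 0 counts in mutant LT-HSC, mutant ST-HSC and both MPP4 groups.

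Mature B cell markers summed to 436 to 687 CPM in MPP3 and 53.4 to 795 CPM elsewhere, so their ranges overlapped. In mutant MPP3, 6, 7 and 5 of 12 were higher against LT-HSC, ST-HSC and MPP4, including Cd79a, which carries the B cell receptor signal, and in control MPP3 edgeR called 0 of 12 (0, 0 and 8 at an unadjusted p under 0.05) and DESeq2 0, 0 and 3. The median log2 difference of the 12 mature B cell markers was 3.24, 4.13 and 2.72 in the mutant comparisons and 0.44, 0.79 and 2.68 in the control ones. Markers of B cell precursors summed to 255 to 468 CPM in MPP4, 97.0 to 206 CPM in MPP3 and at most 129 CPM elsewhere. Most of the MPP4 sum was Dntt. Over the 7 tested markers the median log2 difference of MPP3 against MPP4 was 1.25 in mutant and 1.37 in control libraries. Igll1 had 204 to 637 counts in MPP3 and 2 to 150 in MPP4, whereas Rag2 had 3 to 180 and 88 to 339. Of the recombination and surrogate light chain genes 6 of 6 tested were higher in mutant MPP3 than in LT-HSC and 5 of 6 than in ST-HSC (1.78% and 2.87% of all genes), and 1 was lower than in MPP4. In control MPP3 edgeR called 0 of 6 in each comparison (4, 0 and 1 at an unadjusted p under 0.05) and DESeq2 1, 0 and 1 of 7. The difference between the genotypes in these comparisons was not tested. Vpreb1 had 91, 138, 175 and 90 counts in mutant MPP3 and at most 4 in mutant LT-HSC and ST-HSC, so the filter limit holds for it too. Against MPP4 the median log2 difference of the 6 tested was 1.72 in mutant and 1.88 in control MPP3. The gene lower in mutant MPP3 than in MPP4 was Dntt, which adds bases at the junctions of recombined segments (log2 difference -3.04, SE 0.401, edgeR adjusted p = 0.000468). It stood at 210 to 403 CPM in MPP4.

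Each description holds 1 of 8 numbers that recur across populations, and usage was compared between the 15 libraries with at least 200 V counts as the sum over members of the smaller of the 2 shares. Libraries with the same number overlapped by a median of 5.44% (n = 10 pairs, 0.147% to 33.6%) and libraries with different numbers by 11.8% (n = 95 pairs, 0% to 53.9%). Same-numbered libraries always came from different populations, and among the pairs with different numbers the median was 6.92% between populations (n = 61, 0% to 35.4%) and 18.5% within a population (n = 34, 0% to 53.9%). The pairs share libraries, so no test is given. The highest value with the same number was 33.6%, between control LT-HSC 3 and control MPP3 3 (number 1804), which were both led by Ighv2-3, with 148 and 1434 counts. Ighv2-3 otherwise had a count in mutant MPP3 4 (132) and 1 count in control LT-HSC 1. The highest of all, 53.9%, lay between control MPP3 1 and mutant MPP3 2, which were both led by Igkv15-103.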

How the data were processed

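RNA-seq of polyA RNA was measured in 29 libraries of sorted bone marrow cells. The values are the authors' deposited expected counts, already whole numbers, so no rounding was needed. The submitters' processing notes name the GRCm38 build, Bowtie2 2.2.0, RSEM 1.2.12, edgeR 3.5.3 and SAMtools 0.1.18, with no role or order. RSEM divides reads that match several genes among them, so near-identical segments are uncertain. Symbols, coordinates and sequences came from GENCODE M21 (GRCm38), in which 37607 identifiers matched and 1317 did not. A gene had to have a summed count of at least 10 to be a member. The members and lists were chosen with earlier results of these data known.

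Whole-table tests used edgeR 4.0.16 in R 4.3.3 with TMM scaling, filterByExpr (minimum count 10, minimum total 15), the robust quasi-likelihood fit, two-sided tests and Benjamini-Hochberg adjustment over all genes tested, with a threshold of 0.05. Each mutant and control comparison was fitted on its population, and each population comparison on all libraries of 1 genotype. CPM used TMM factors over all 29 libraries. Summed levels, usage shares and effective numbers (inverse Simpson index) were not tested, since the members were chosen with results known. Named were the 10 members with the highest summed count, the leading segment of each library with at least 100 V counts, up to 5 members past the threshold per comparison by smallest p, and the 3 highest of each locus. Other members are named where a count or pattern turned on them. Alternatives were DESeq2 1.42.0, its size factors (RLE) in edgeR, no filter on low counts, each library left out, a replicate block, member minimum 50, no pseudogenes and, added after seeing the data, a fit without robust spread and the column header's prefix as a term. The block was the number in the description between populations and the replicate number of the title between mutant and control. The tests were checked on simulated counts. Depth was 6133994 to 10374672 counts per library, so that 3 counts correspond to 0.288 to 0.564 CPM.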

Additional observations from a re-analysis of the deposited data

Results flagged for a closer look

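Dixon's test at the 95% level was run within groups of 4 libraries on the summed V level, the effective number, the heavy share and the 10 members with the highest summed counts. There, 10 values lay far from the other 3, and the test marks about 1 group in 20 by chance. That rate does not hold for the 10 members. They were picked by summed count, of which mutant MPP3 4 alone held 50.2%, so its high values among them were in part fixed by the choice. The other members were not tested this way. Of the 10 values marked, 6 came from mutant MPP3 4: its summed V level of 9170 CPM, Igkv1-88 at 3580 CPM, Ighv5-16 at 1070 CPM, Iglv1 at 147 CPM, Igkv1-110 at 176 CPM and Ighv1-50 at 54.3 CPM. Mutant ST-HSC 3 stood above its group in Iglv1 at 9.78 CPM and Igkv1-110 at 20.3 CPM. Control LT-HSC 3 stood above its group in Ighv1-50 at 12.4 CPM. Mutant ST-HSC 1 stood above its group in Igkv12-46 at 4.23 CPM, where the other 3 had 0 counts. The other 3 also had 0 counts for Iglv1 in mutant ST-HSC and for Ighv1-50 in mutant MPP3. Where the other 3 are at 0, any count in the remaining library is marked. Groups of 3 libraries were not tested this way.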

How the results depend on the processing

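Counts of members called moved with the tool and the filter more than with the scaling. Among the 4 control populations 6 members were called, with 13 under DESeq2, 36 without a filter on low counts, 22 without robust spread and 11 with the header prefix as a term. Control MPP3 against LT-HSC had 3, with 10 (DESeq2), 6 (no filter) and 5 (header prefix), against ST-HSC 3, with 6 (DESeq2) and 6 (no filter), and against MPP4 3, with 21 (DESeq2), 11 (no filter), 12 (without robust spread) and 5 (header prefix). Among the 4 mutant populations 12 were called, with 39 without a filter and 19 without robust spread. Mutant MPP3 against LT-HSC had 9, with 15 (DESeq2), and against ST-HSC 10, with 18 (DESeq2) and 16 (header prefix). Deviations from the group mean were correlated between libraries over all genes past the filter. For same-numbered libraries r ran from -0.152 to 0.175 over 18 control pairs and from -0.077 to 0.151 over 21 mutant pairs, with 3 over 0.1 in each. For different numbers it ran from -0.171 to 0.153 over 55 control pairs and from -0.19 to 0.203 over 63 mutant pairs, with 7 and 3 over 0.1. Between mutant and control libraries with the same replicate number of the title, r ran from -0.175 to 0.092 (13 pairs), against -0.149 to 0.18 with different ones (39 pairs). This check was not run on the V segments alone. With the number in the description as a block the calls were 15 among control populations, 9 against control LT-HSC, 13 against control MPP4, 19 among mutant populations, 15 against mutant LT-HSC, 17 against mutant ST-HSC and 17 against mutant MPP4. In mutant against control MPP3 a block on the replicate number of the titles gave 1 call in place of 0, Ighv1-50 (log2 difference -12.13, adjusted p = 0.0103, against -2.86 without the block), and leaving out 1 library moved this difference from -12.62 (without mutant MPP3 4) to 0.06 (without control MPP3 1). Leaving out each library gave 0 calls between mutant and control in LT-HSC, ST-HSC and MPP4 and 0 to 1 in MPP3. It gave 4 to 37 among control populations, 2 to 14, 2 to 11 and 3 to 18 for control MPP3 against LT-HSC, ST-HSC and MPP4, 6 to 25 among mutant populations, and 4 to 11, 5 to 19 and 5 to 12 for mutant MPP3. The highest of these, 37, was without control ST-HSC 1. Leaving out control ST-HSC 2 or 3 also left a group of 2 libraries, and gave fewer calls. Of 24 calls of named members under 477 alternatives, 0 reversed, 21 were lost and 456 kept, with 18 of the lost among 333 fits that left out a library. The causes of these shifts were not tested. With 21 to 93 V counts in MPP4 libraries, shares of single segments there have wide intervals, and edgeR's filter left no member to test within MPP4.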
